A study of Litchi chinensis with 18 samples.

Results

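Litchi (Litchi chinensis) bears functionally female and functionally male flowers on one inflorescence, and the comparison described here is that of the stamens with the carpels inside one of its male flower types, the M flower. The M flower is functionally male and has a rudimentary pistil that is not obvious to the eye. Its 6 RNA-seq libraries, 3 of stamens (M-stamen) and 3 of carpels (M-carpel), are 6 of the 18 libraries of the series and were taken by their labels. The other 12 libraries hold the same organs of the F flower, functionally female with rudimentary stamens, and of the m flower, functionally male with an obvious rudimentary pistil. All material came from flowers of 'Feizixiao' litchi at full bloom, with no treatment named for it, carpels and stamens having been detached and sampled separately. The study asked how MADS-box genes are expressed in these organs. Material was taken from the parts of the tree facing the compass directions, and nothing states that the 3 libraries of an organ came from separate trees, so the p-values measure only the spread between these libraries.

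Stamens and carpels are specified by combinations of MADS-box transcription factors. In the ABCDE scheme, known mainly from Arabidopsis and snapdragon, B-class proteins (PISTILLATA and APETALA3) act with C- and E-class proteins to make stamens, C-class proteins (AGAMOUS) with E-class proteins (SEPALLATA) make carpels, and D-class proteins (SEEDSTICK, SHATTERPROOF) act in ovules. A stamen at full bloom holds mature pollen, whose RNA is rich in pectin-modifying enzymes, actin regulators, receptor kinases and proton pumps that serve tube growth. A working carpel adds a transmitting tract, a style and stigma, and ovules.

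The total count was between 27940914 and 30172661 in the M-stamen libraries and between 25689398 and 27200591 in the M-carpel libraries. Counts were summed over the gene models of a locus, and levels are given in FPKM, the fragment count scaled by transcript length and library size, so that they can be set beside each other between genes. Libraries M-stamen 1 and M-carpel 1 stood apart from their groups in the share of counts on abundant, unannotated new genes. Of the counts of a library, 2.18% in M-stamen 1 but 0.176% and 0.194% in M-stamen 2 and 3 fell on loci that held at least 1% of an M library, against 0.446%, 5.01% and 3.81% in M-carpel 1, 2 and 3. Over the M-carpel libraries together, newGene_662 held 1.23% of the counts, newGene_6311 1.2% and newGene_6310 0.656%. The M-stamen minus M-carpel log2 fold change of newGene_6311 was -1.83 (SE 1.01, FDR 0.127). This gene passed the test only without M-stamen 1 (-4.23, FDR 0.00259).

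Of 24666 loci tested with edgeR's quasi-likelihood test, 6575 (26.7%) were called, that is, they had a Benjamini-Hochberg FDR under 0.01 and a log2 fold change of 1 or more in either direction. Of all loci tested, 3867 (15.7%) were higher in the M-stamen and 2708 (11%) in the M-carpel. The calls toward the stamen were also larger, with a median log2 difference of 2.42 against 1.72 for the carpel calls. A log2 difference of at least 3 was reached by 1578 stamen loci and 530 carpel loci, and one of at least 5 by 428 and 175. The median over all tested loci was 0.01. In the m flower 10196 loci (41.3%) were called in the same contrast, 5823 (23.6%) toward the stamen and 4373 (17.7%) toward the carpel. Of these, 3235 and 2042 were called in the same direction in the M flower, and 78 in opposite directions.

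**Figure D1:**
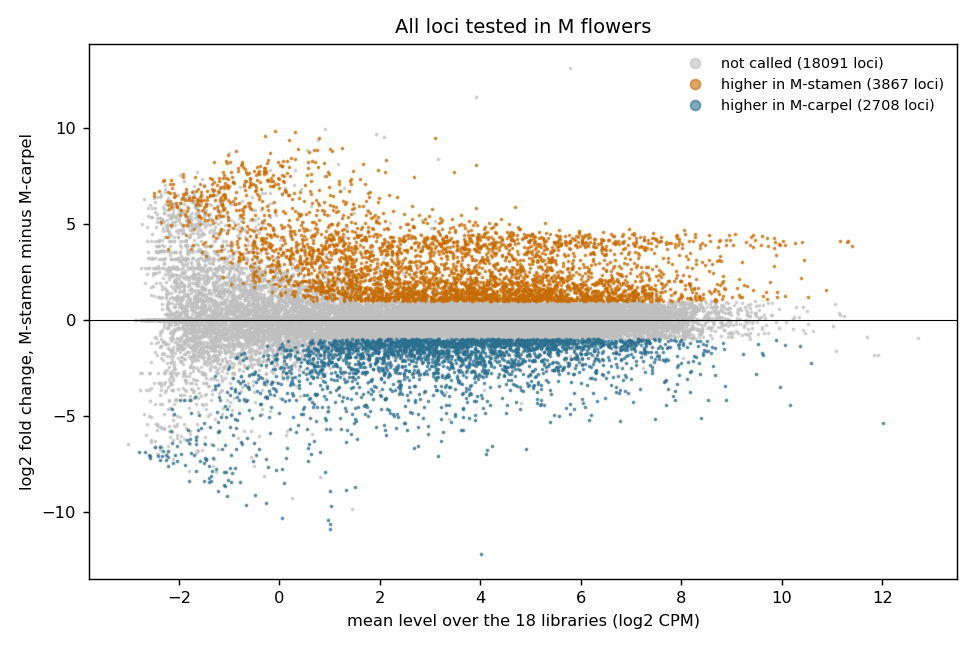
Log2 fold change of M-stamen over M-carpel (vertical axis) against the mean level in log2 CPM over the 18 libraries (horizontal axis) for the 24666 loci tested, each point a locus. The 3867 loci higher in the M-stamen include a dense band near a log2 fold change of 4 that has no counterpart among the 2708 loci higher in the M-carpel; at the left, loci with few counts have fitted values that depend on the prior count.

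The ABCDE genes with the largest called difference in each direction are shown by the first 150 bases of their coding sequences, which encode most of the DNA-binding MADS domain, as listed in the study's gene table and read from the start codon (in capitals). LcMADS50 (LcPI) differed most toward the stamen and LcMADS73 (LcSEP4) toward the carpel, and 111 of these 150 bases were identical between both.
LcMADS50: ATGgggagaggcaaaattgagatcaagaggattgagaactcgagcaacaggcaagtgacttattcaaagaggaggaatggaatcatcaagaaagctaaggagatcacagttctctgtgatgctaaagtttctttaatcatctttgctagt
LcMADS73: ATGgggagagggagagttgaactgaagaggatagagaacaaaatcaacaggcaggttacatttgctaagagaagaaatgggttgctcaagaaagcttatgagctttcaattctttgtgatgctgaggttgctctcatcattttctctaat

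B-class genes were far higher in the stamen. LcPI (LITCHI011302), the litchi PISTILLATA gene, stood at 636, 619 and 675 FPKM in the M-stamen libraries and at 78.8, 76.6 and 74.8 in the M-carpel libraries. The groups did not overlap, and the log2 fold change was 3.11 (SE 0.13, FDR 6.49e-13). LcAP3-1 (LcMADS75, LITCHI006530), its APETALA3 partner, was at 298, 312 and 308 FPKM in the stamen and 63.3, 62.6 and 58.4 in the carpel, again without overlap (log2 fold change 2.36, SE 0.05, FDR 2.64e-16). No M-carpel library was below 58.4 FPKM for either of these B-class genes. LcAP3-2 (LcMADS45, LITCHI010203) was low in both organs, at 2.72 ± 0.209 FPKM in the stamen and 2.27 ± 0.506 in the carpel (SD, n = 3), with overlapping libraries and an FDR of 0.12.

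The C- and D-class genes differed less. LcAG (LcMADS65, LITCHI028933), the litchi AGAMOUS gene, had 77.0 ± 3.23 FPKM in the stamen and 53.8 ± 3.26 in the carpel (SD, n = 3), a log2 fold change of 0.56 that did not reach the minimum of 1 (FDR 8.41e-10). LcSHP (LcMADS11, LITCHI026995) was at 16.1, 16.5 and 16.8 FPKM in the stamen and 7.73, 7.13 and 8.63 in the carpel, so that this gene, named after the Arabidopsis SHATTERPROOF genes of the fruit valve margin, was the higher one in the stamen (log2 fold change 1.12, SE 0.09, FDR 6.12e-09). On the log2(FPKM + 1) scale its difference was 0.99 and no longer reached the minimum. LcSTK (LcMADS51, LITCHI011705), the litchi counterpart of the Arabidopsis ovule identity gene SEEDSTICK, had 0.351, 0.37 and 0.518 FPKM in the stamen and 0.846, 1.03 and 1.48 in the carpel. The libraries did not overlap and the call went to the carpel (log2 fold change -1.36, SE 0.23, FDR 7.45e-05), but the level was 32.9 FPKM in the F-carpel and 7.85 in the m-carpel. The LcSTK call was lost when only the M organs entered the fit (FDR 0.0135) and with limma on log2(FPKM + 1), where the difference was -0.58.

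Among the E-class genes a single one was called. LcSEP4 (LcMADS73, LITCHI023328) stood at 13.8, 11.8 and 13.4 FPKM in the stamen and at 122, 109 and 115 in the carpel, a mean 8.87 times higher in the carpel (log2 fold change -3.10, SE 0.08, FDR 2.7e-15). LcSEP1 (LcMADS100) was at 231 ± 12.8 and 168 ± 5.38 FPKM in stamen and carpel, and LcSEP3 (LcMADS91) at 138 ± 7.14 and 133 ± 7.11 (SD, n = 3). The log2 fold changes of LcSEP1 and LcSEP3, 0.51 and 0.11, stayed below the minimum. LcSEP2 (LcMADS94) was low, at 0.771 ± 0.29 and 1.63 ± 0.523 FPKM, and its FDR was 0.0403. LcAP1 (LcMADS95), the A-class gene, was low as well but higher in every stamen library, at 10.4 ± 0.17 against 3.81 ± 0.253 FPKM (log2 fold change 1.49, SE 0.17, FDR 5.35e-07). LcActin, the reference gene of the study's quantitative PCR, had 331 ± 18.1 FPKM in the stamen and 283 ± 18.4 in the carpel (log2 fold change 0.28, not called).

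**Figure D2:**
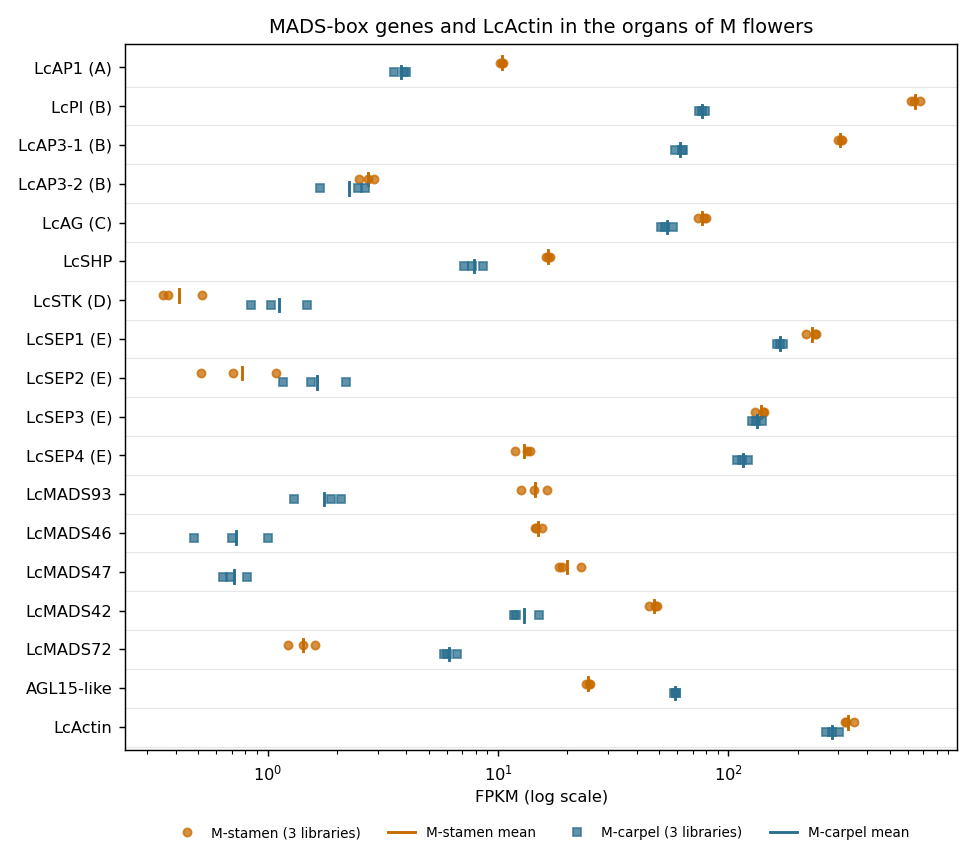
FPKM on a log axis of the 11 ABCDE genes, the 6 further MADS-box loci described in the text and LcActin in each of the 3 M-stamen (orange circles) and 3 M-carpel libraries (blue squares), with vertical ticks at the group means. LcPI, LcAP3-1 and the MIKC* genes LcMADS46, LcMADS47 and LcMADS93 lie to the right in the stamen, LcSEP4 and LcMADS72 in the carpel, and LcSEP3 and LcAP3-2 overlap.

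Of the 101 MADS-box loci named by the study, 35 had no count in any M library and 44 were tested. Of these, 9 (20.5%) were higher in the stamen and 5 (11.4%) in the carpel, shares near the 15.7% and 11% over all loci, with a median log2 fold change of 0.59 beside 0.01. The MIKC* genes form the branch of the family that acts in pollen in Arabidopsis. LcMADS46 was at 14.5, 15.5 and 14.6 FPKM in the stamen and 0.701, 1.0 and 0.481 in the carpel, and LcMADS47 at 18.3, 18.9 and 22.8 against 0.686, 0.639 and 0.812. Both were called (log2 fold changes 4.36, SE 0.26, and 4.83, SE 0.31), but how the reads divide between them is uncertain. Their first 150 coding bases are identical, as are 323 of the 399 bases compared, which is why the shared stretch is shown here without capitals.
LcMADS46 and LcMADS47: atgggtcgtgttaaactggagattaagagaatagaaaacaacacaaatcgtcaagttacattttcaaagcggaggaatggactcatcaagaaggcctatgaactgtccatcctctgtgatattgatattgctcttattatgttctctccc
Another MIKC* gene, LcMADS93, annotated as AGL30, was at 14.4 ± 1.89 FPKM in the stamen and 1.76 ± 0.406 in the carpel (SD, n = 3, log2 fold change 3.08). LcMADS42, annotated as AGL18, had 47.6 ± 1.98 and 12.9 ± 1.88 FPKM (log2 fold change 1.93). On the carpel side, LcMADS72 of the APETALA1/FRUITFULL group had 1.42 ± 0.185 FPKM in the stamen and 6.15 ± 0.456 in the carpel (log2 fold change -2.06), and LITCHI004481, annotated as AGL15, had 24.7 ± 0.494 and 58.7 ± 0.392 (log2 fold change -1.20). The 2 remaining calls rest on few reads. LcMADS18 had 13, 7 and 8 counts in the stamen libraries and 0 in each carpel library, and LcMADS20 had 0 in each stamen library and 10, 22 and 15 in the carpel libraries. Both belong to a cluster of similar SVP-type genes, so their counts are uncertain.

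Pollen genes made up the most one-sided list. Of 41 loci with names of pollen markers, 31 were tested, and 22 were higher in the stamen and 0 in the carpel. That is 71.0% of the tested members, beside 15.7% over all loci, and the median log2 fold change was 3.78. A LAT52 gene (LITCHI013059), whose tomato counterpart is needed for pollen hydration and tube growth, was at 627, 619 and 712 FPKM in the stamen and 37.6, 33.2 and 33.4 in the carpel (log2 fold change 4.28, SE 0.1, FDR 7.93e-16). The pollen receptor kinase gene PRK1 was at 57.2, 62.1 and 62.8 FPKM in the stamen and 4.24, 4.36 and 3.39 in the carpel, and ANX1, which keeps the growing tube intact in Arabidopsis, at 38.3, 41.0 and 40.4 against 3.07, 2.56 and 3.32. These 3 genes were between 13.4 and 18.8 times higher in the stamen, yet none was at 0 in a carpel library.

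The carpel levels of the called pollen genes had a median of 6.46% of their stamen levels, and 16 of the 22 were below 10%. HAP2, required for gamete fusion in Arabidopsis, was at 15.5 ± 1.04 FPKM in the stamen and 4.62 ± 0.682 in the carpel, and a second LAT52 gene (LITCHI008126) at 25.9 ± 1.99 and 8.85 ± 0.385 (SD, n = 3). These lay at 28.8% and 33.2% of the stamen level, well above the median. Summed over the list, the level was between 1490 and 1700 FPKM in the stamen libraries and between 211 and 234 in the carpel libraries. The mean sum was 222 FPKM in the M-carpel, 202 in the m-carpel and 156 in the F-carpel. In the stamens it was 1590, 4030 and 2960 in the M, m and F flowers. Of the 41 loci, 10 were at 0 in the mean of the M-carpel libraries, and 6 in the mean of the M-stamen libraries. Of the loci at 0 in the stamen, all but an ACA9 locus (LITCHI031488) were also at 0 in the carpel. Among them were copies annotated as AGL65 and AGL104, MIKC* factors of Arabidopsis pollen.

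Other lists of tube growth and wall loosening leaned the same way. Of 124 tested pectin-modifying enzymes, 61 (49.2%) were higher in the stamen and 8 (6.45%) in the carpel (median log2 fold change 1.53). Over all loci the shares were 15.7% and 11%. The pectinesterase gene PME50 was at 1060, 1120 and 1220 FPKM in the stamen and 70.6, 65.3 and 66.4 in the carpel, and the polygalacturonase gene PG1 (newGene_82) at 1480, 1820 and 1620 against 128, 108 and 109. The pectate lyase gene LAT59, found in tomato anthers, had 550 ± 34.4 and 35.1 ± 2.97 FPKM (SD, n = 3). These 3 genes were between 14.3 and 16.8 times higher in the stamen. Of 29 tested receptor kinases and peptides of the pollen tube, 15 (51.7%) were higher in the stamen and 2 (6.9%) in the carpel. RALFL4, a peptide that signals tube wall integrity in Arabidopsis, was at 189 ± 13.4 against 11.5 ± 1.65 FPKM. ROP signalling steers tip growth. Of 88 genes of it and of the actin cytoskeleton, 29 (33.0%) were higher in the stamen and 4 (4.55%) in the carpel. Profilin-3 was a stamen call, at 165 ± 13.5 against 10.5 ± 2.53 FPKM.

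Transport genes followed. Of 124 tested aquaporins, potassium channels and proton pumps, 50 (40.3%) were higher in the stamen and 8 (6.45%) in the carpel (median 0.95). The shares over all loci were 15.7% and 11%. The proton pump AHA8, known from Arabidopsis pollen, was at 563, 598 and 627 FPKM in the stamen and 41.2, 33.7 and 36.8 in the carpel. Of 75 genes of sugar transport and cleavage, 35 (46.7%) were higher in the stamen and 7 (9.33%) in the carpel, the latter near the share over all loci. The sugar transporter gene SWEET1 had 545 ± 25 and 69.7 ± 5.49 FPKM, and SWEET10 had 47.4 ± 4.11 and 1.27 ± 0.848 (SD, n = 3, log2 fold change 5.26). Loci annotated as the cell wall invertase CWINV1, which splits sucrose outside the cell, went both ways. LITCHI030113 was at 15.7 ± 1.63 FPKM in the stamen and 74.2 ± 4.31 in the carpel (SD, n = 3), and LITCHI030112 was also called higher in the carpel, at 19.9 ± 0.659 against 50.9 ± 2.24. LITCHI030803, at 122 FPKM in the stamen and 21.1 in the carpel, and LITCHI030100, at 4.51 and 0.294, were called higher in the stamen. Of 28 arabinogalactan proteins 13 were higher in the stamen and 0 in the carpel (median 1.56), and of 82 GDSL esterases, a family of lipid-cleaving enzymes, 41 and 4 (median 1.52).

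The other tissues of the stamen were represented unevenly. The tapetum nourishes young pollen and breaks down before the anther opens. Of 27 tested tapetum loci, 5 were higher in the stamen and 3 in the carpel, shares of 18.5% and 11.1% that lay near those over all loci, and the summed level was 119 to 125 FPKM in the stamen and 89.5 to 91.2 in the carpel. A callose synthase gene CALS5 (LITCHI007454), whose Arabidopsis counterpart builds the callose wall around microspores, had 22.3 ± 0.586 and 1.64 ± 0.296 FPKM. QRT3 (LITCHI025233), a polygalacturonase that separates microspores in Arabidopsis, was higher in the carpel, at 4.95 ± 0.29 in the stamen against 13.3 ± 0.408. MS1 (LITCHI005964), a defining gene of the tapetum, was at 0 in every library of both organs. In the list of the endothecium and of anther opening, 3 of 7 tested loci (42.9%) were higher in the stamen and 0 in the carpel. The shares over all loci were 15.7% and 11%. MYB108, a factor of anther opening in Arabidopsis, led the list at 249 ± 12.6 and 50.2 ± 4.41 FPKM.

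Lists of regulators and proteases lay nearer to the shares over all loci (15.7% and 11%). Of 72 tested NAC factors, 15 (20.8%) were higher in the stamen and 10 (13.9%) in the carpel, and the list's summed FPKM was higher in the carpel, at 2560 to 2860 against 1510 to 1580. Of 124 MYB factors, 18 (14.5%) were higher in the stamen and 20 (16.1%) in the carpel. Single members differed strongly. NAC056 was at 197, 202 and 203 FPKM in the stamen and 14.8, 12.9 and 12.8 in the carpel (log2 fold change 3.94, SE 0.07, FDR 1.81e-17). MYB305, which in tobacco flowers controls nectary genes, had 571 ± 24.7 and 164 ± 10.5 FPKM. The cysteine protease gene SAG39 was at 347, 396 and 412 FPKM against 21.2, 18.8 and 20.1, and a gene annotated as vignain (LITCHI022533), a protease of dying plant tissue, had 1190 ± 29.1 and 142 ± 6.25 (SD, n = 3). Of 150 proteases and nucleases of cell death, 33 (22.0%) were higher in the stamen and 12 (8.0%) in the carpel, with a median of 0.15. The single largest stamen call among annotated loci of at least 10 FPKM, CRSP (log2 fold change 5.87), was uneven between libraries, at 2.34, 43.1 and 23.0 FPKM in the stamen and 0.452, 0.292 and 0.444 in the carpel.

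**Figure D3:**
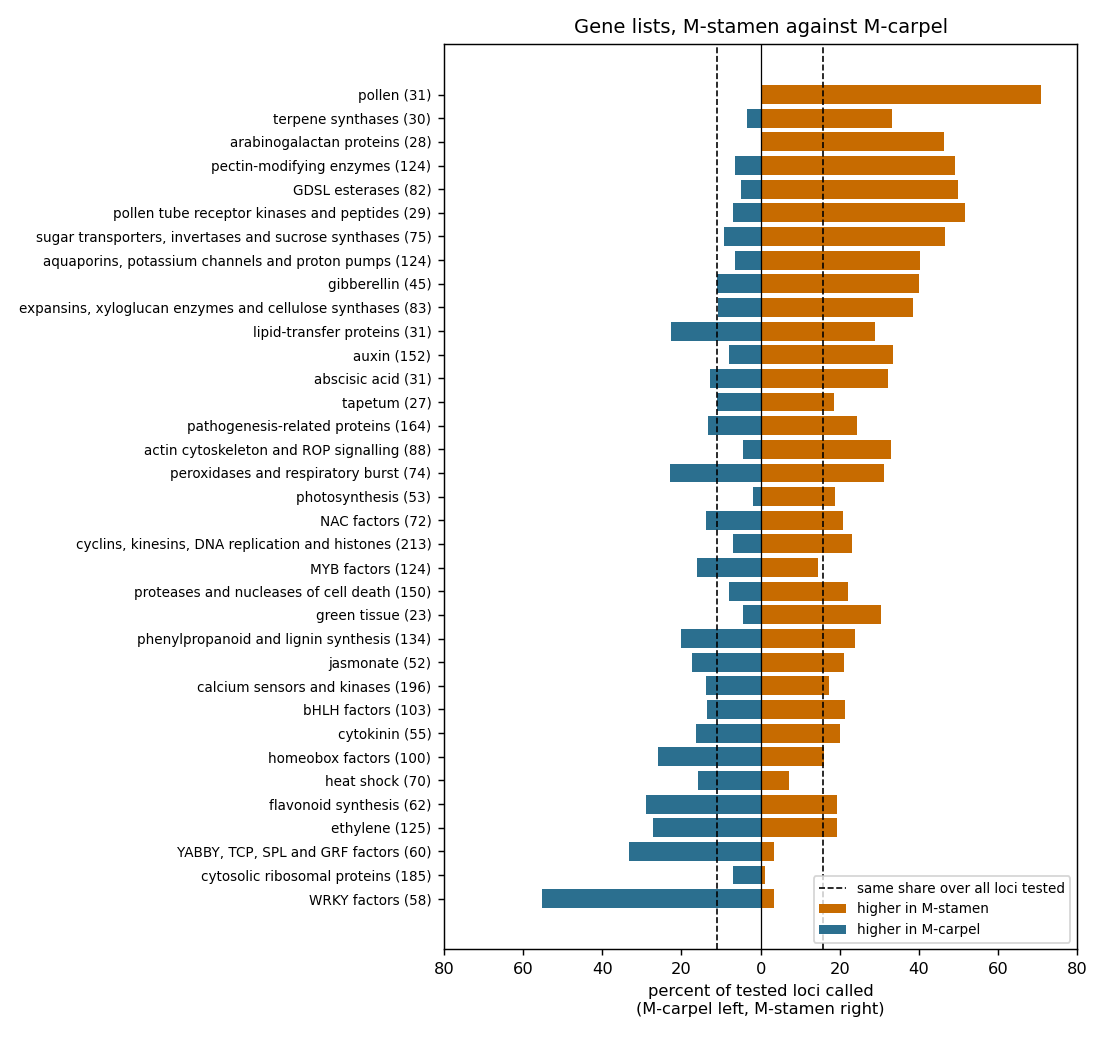
Percent of the tested loci of each gene list that were called higher in the M-stamen (orange, to the right) or in the M-carpel (blue, to the left), for lists with at least 20 tested loci, whose number stands in brackets, ordered by median log2 fold change. Dashed lines mark the shares over all loci, 15.7% and 11%; the pollen list reaches 71.0% on the stamen side and the WRKY list 55.2% on the carpel side.

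The loci higher in the M-carpel fell into other groups. WRKY factors, which respond to wounding, pathogens and senescence, were the most one-sided: of 58 tested, 32 (55.2%, beside 11% over all loci) were higher in the carpel and 2 in the stamen, and the median log2 fold change was -1.16. WRKY71 was at 13.8, 15.8 and 13.8 FPKM in the stamen and 292, 251 and 277 in the carpel, 18.9 times higher in the mean (log2 fold change -4.19, SE 0.08, FDR 3.79e-17). WRKY42 and WRKY24 were 2.99 and 3.62 times higher, with 253 ± 13.4 and 224 ± 13.9 FPKM in the carpel (SD, n = 3). No library of the stamen reached a carpel level in any of these genes, which follows in part from naming called loci.

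Flavonoid and phenylpropanoid enzymes showed single genes with far higher carpel levels inside lists that were called in both directions. Of 62 tested flavonoid genes, 18 (29.0%) were higher in the carpel and 12 (19.4%) in the stamen, and the median was -0.20. The shares over all loci were 11% and 15.7%, so the stamen share of the list lay near the latter. Chalcone synthase CHS2, the entry enzyme of the pathway, was at 63.9, 65.8 and 65.2 FPKM in the stamen and 777, 730 and 732 in the carpel. FHT, flavanone 3-hydroxylase, which acts further along the pathway, was at 0.785, 0.968 and 1.44 against 130, 108 and 118, a mean 112 times higher in the carpel (log2 fold change -6.74, SE 0.33, FDR 1.04e-11). Flavonoid 3'-hydroxylase (CYP75B2, LITCHI023381) had 9.66 ± 0.739 and 128 ± 3.18 FPKM, leucoanthocyanidin reductase (LAR), which makes catechin, 8.13 ± 0.493 and 102 ± 8.32, and GSTF12, which carries anthocyanins to the vacuole in Arabidopsis, 0.515 ± 0.0791 and 60.1 ± 3.14 (SD, n = 3). Another gene annotated as flavonoid 3'-hydroxylase (LITCHI002550) was on the stamen side, at 102 ± 6.8 FPKM in the stamen and 5.62 ± 0.367 in the carpel, so the loci of 1 enzyme name went in opposite directions.

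Of 134 phenylpropanoid and lignin genes, 27 (20.1%) were higher in the carpel and 32 (23.9%) in the stamen, beside 11% and 15.7% over all loci. A caffeoyl-CoA O-methyltransferase gene (LITCHI017676) of lignin monomer synthesis was at 15.6, 16.5 and 14.7 FPKM in the stamen and 569, 557 and 580 in the carpel, 36.5 times higher. Laccase LAC7 had 82.4 ± 5.22 and 552 ± 28.1 FPKM, and peroxidase 4 (LITCHI031116) had 22.1 ± 0.779 and 412 ± 17.7 (SD, n = 3). Cinnamyl alcohol dehydrogenase CAD1, in contrast, had 539 ± 25.2 in the stamen and 63.4 ± 3.75 in the carpel.

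Defence-type genes gave some of the highest carpel levels. A mannose/glucose-specific lectin gene (LITCHI028104) was at 37.7, 43.7 and 41.3 FPKM in the stamen and 1870, 1650 and 1750 in the carpel (log2 fold change -5.38, SE 0.07, FDR 1.1e-18), and at 15800 FPKM in the m-carpel. A thaumatin-like gene (LITCHI009151) had 38.9 ± 2.2 and 626 ± 31.2 FPKM (SD, n = 3). Within the list of pathogenesis-related proteins, however, 40 of 164 tested loci (24.4%) were higher in the stamen and 22 (13.4%) in the carpel, with a median of 0.47. Over all loci the shares were 15.7% and 11%, so the carpel share of the list lay near the latter. The largest carpel calls among annotated loci of at least 10 FPKM were cytochrome P450 CYP71D10 (log2 fold change -7.07), a germin-like protein (At5g39110 by its annotation, -6.97), GSTF12 (-6.79), FHT and AIL1 (-6.32), followed by Derlin-1, LBD15 and a TMV resistance N-type gene between -6.01 and -5.75. Their mean stamen levels were all at 1.06 FPKM or less.

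**Figure D4:**
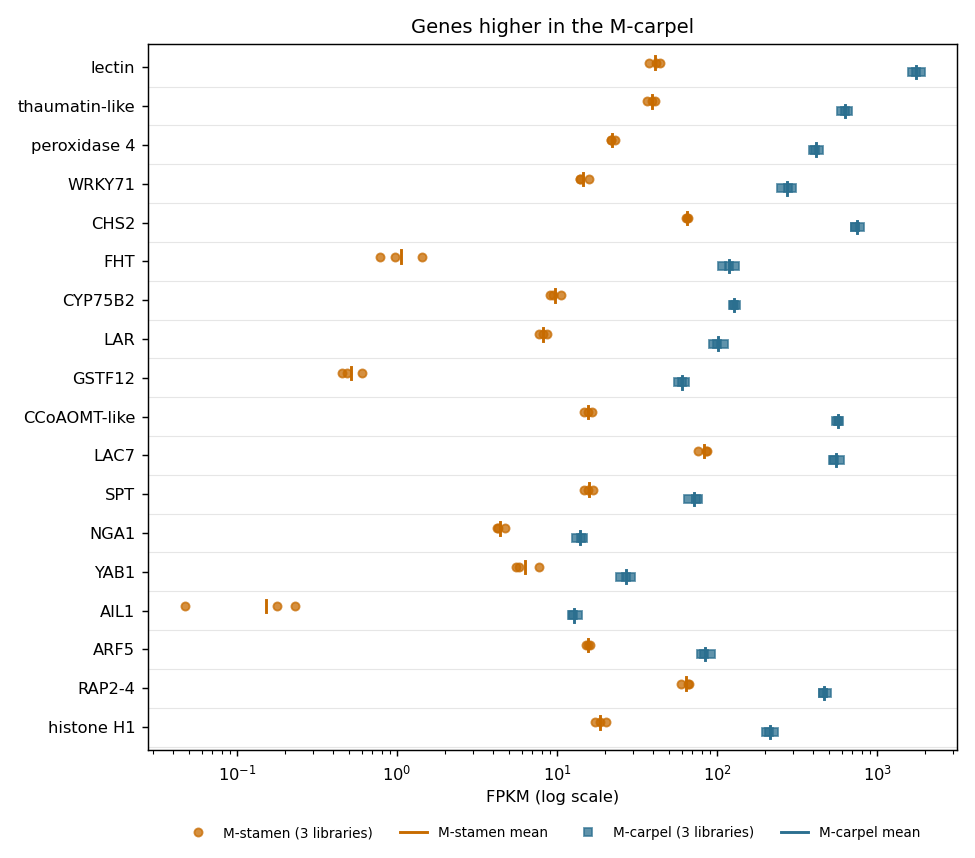
FPKM on a log axis of 18 genes higher in the M-carpel, in each of the 3 M-stamen (orange circles) and 3 M-carpel libraries (blue squares), with ticks at the group means. The genes were chosen for being higher in the carpel, so a gap between the organs follows in part from that choice. The organs do not overlap in any of them, from NGA1 (4.42 against 13.9 FPKM) to GSTF12 (0.515 against 60.1).

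Most of the called genes of carpel development were higher in the M-carpel. Of 14 tested loci named for carpel, style and stigma, 6 were higher in the carpel and 1 in the stamen, shares of 42.9% and 7.14% beside 11% and 15.7% over all loci, and the summed level was 146 to 172 FPKM in the carpel and 110 to 116 in the stamen. SPATULA (LITCHI006903), which shapes carpel margins in Arabidopsis, was at 15.7, 14.8 and 16.7 FPKM in the stamen and 76.2, 66.0 and 73.3 in the carpel (log2 fold change -2.14, SE 0.09, FDR 6.96e-13). The style factor NGA1 had 4.42 ± 0.287 and 13.9 ± 0.676 FPKM, and bHLH75, which acts in the transmitting tract of Arabidopsis, 0.852 ± 0.328 and 4.07 ± 0.19 (SD, n = 3). bHLH75 was at 21.6 FPKM in the F-carpel. CRABS CLAW, a carpel and nectary gene, was no higher in the carpel: it stood at 54.7, 58.2 and 55.6 FPKM in the stamen and 34.2, 25.5 and 33.9 in the carpel (log2 fold change 0.90, not called). IND, of the fruit valve margin, was higher in the stamen, at 3.17 ± 0.7 against 1.01 ± 0.103 FPKM.

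Ovule genes went both ways. Of 12 tested, 3 were higher in the carpel and 2 in the stamen, and the median log2 fold change was 0.00. The shares over all loci were 11% toward the carpel and 15.7% toward the stamen. The stamen share of the list lay near the latter, and with so few loci a departure from either was not tested. AIL1, an AINTEGUMENTA-like factor, was at 0.229, 0.177 and 0.047 FPKM in the stamen and 13.6, 12.4 and 12.5 in the carpel. AINTEGUMENTA itself, which acts in ovule integuments and in many young organs, had 27.2 ± 5.79 and 22.8 ± 2.58 FPKM (SD, n = 3) and was not called (FDR 0.0551). BEL1, an integument gene in Arabidopsis, was higher in the stamen, at 17.9 ± 1.87 against 2.43 ± 0.776 FPKM, and WUSCHEL at 1.77 ± 0.308 against 0.0302 ± 0.0262.

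The called regulators of organ polarity and growth were mostly on the carpel side, though most tested members were not called. The summed level of the list was similar, at 500 FPKM in the stamen and 536 in the carpel. Of 60 tested YABBY, TCP, SPL and GRF factors, 20 (33.3%) were higher in the carpel and 2 (3.33%) in the stamen (median -0.62). Over all loci the shares were 11% toward the carpel and 15.7% toward the stamen. YAB1, a polarity factor of lateral organs, was at 5.55, 5.77 and 7.65 FPKM in the stamen and 29.0, 24.6 and 27.0 in the carpel (log2 fold change -2.04, SE 0.1, FDR 1.21e-11), and SPL2 had 1.88 ± 0.765 and 14.3 ± 0.213 (SD, n = 3). Of 100 homeobox factors 26 were higher in the carpel and 16 in the stamen. Of 125 ethylene genes 34 (27.2%) were higher in the carpel and 24 (19.2%) in the stamen, the latter again near the share over all loci. The AP2/ERF factor RAP2-4 was at 63.9 ± 3.61 FPKM in the stamen and 468 ± 15.3 in the carpel. Of 152 auxin genes, in contrast, 51 (33.6%) were higher in the stamen and 12 (7.89%) in the carpel. The auxin response factor ARF5, however, was at 15.2, 15.7 and 16.1 FPKM in the stamen and 90.9, 79.2 and 83.3 in the carpel.

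Because pollen genes were detected in every M-carpel library, and in the means of the other carpels too, the M-carpel was read through loci chosen without the M libraries. In the F and m flowers 226 loci had at least 10 FPKM in both stamens and at most 2% of the lower stamen level in both carpels. In the M flower the carpel level of these stamen-restricted loci had a median of 5.75% of the stamen level (quartiles 4.91% and 6.49%), and 220 of the 226 lay below 10%. The median was 5.86%, 5.77% and 5.35% in M-carpel 1, 2 and 3 (SD 0.272), so no single library carried it. The same loci were at a median of 0.879% in the m flower and 0.473% in the F flower, values that the choice of the loci bounded. In FPKM, the median over the 226 loci was 27.8 in the M-stamen and 1.56 in the M-carpel, beside 57.3 in the m-stamen and 0.495 in the m-carpel. Set beside the m-stamen, the M-stamen level of these loci was 33.9% in the median, so the M percentages rest on a lower stamen level as well as on a higher carpel level. LcPI was a member and stood at 11.5%, LAT52 (LITCHI013059) at 5.14%, PME50 at 5.76% and PG1 at 6.88%.

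A second set of 18 loci, with at least 10 FPKM in the m-stamen and at most 10% of that in the F-stamen and 2% in the F and m carpels, had a median M-carpel level of 5.55% of the M-stamen level (quartiles 3.94% and 9.27%). Over all loci high in a stamen, with no set chosen, the counts were as follows. Of 7922 loci with at least 10 FPKM in the M-stamen, 4 lay below 2% of that level in the M-carpel and 422 below 10%, whereas of 7243 such loci of the m flower 535 lay below 2% and 954 below 10%, and of 8605 of the F flower 525 and 790. In the reverse direction, 12 of 7930 loci with at least 10 FPKM in the M-carpel were below 2% of it in the M-stamen, 57 of 7818 in the m flower and 72 of 8812 in the F flower. Bulk samples cannot tell fewer cells of a type from less RNA per cell, and the part of stamen tissue or pollen in the M-carpel samples was not tested. Among the 3867 loci called higher in the stamen, the median M-carpel level was 18.6% of the stamen level, and 1415 loci were below 10%.

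**Figure D5:**
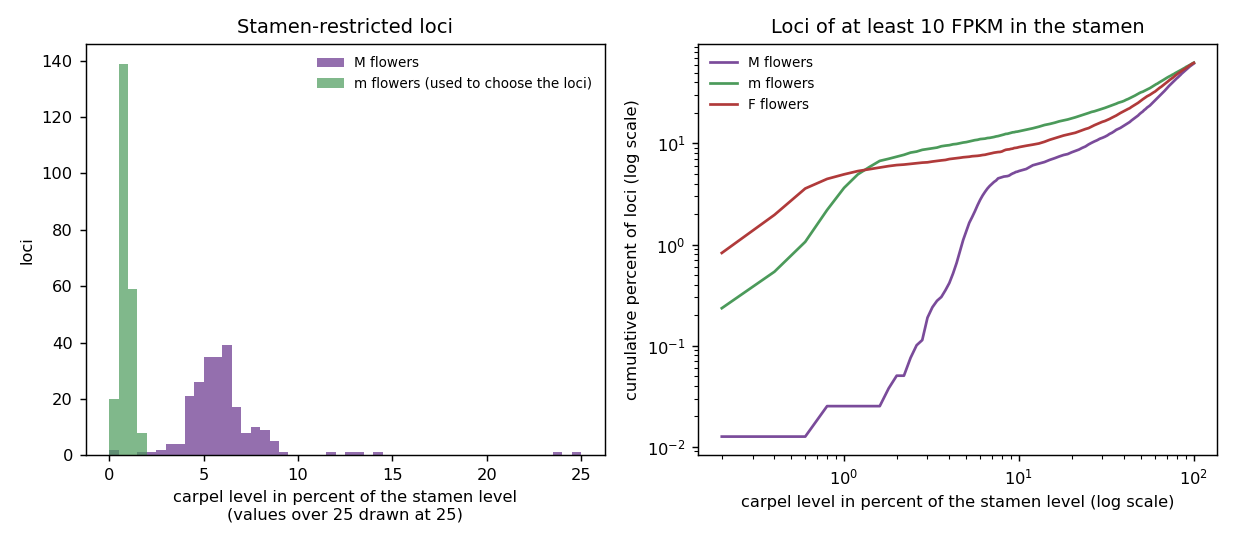
Left, number of the 226 stamen-restricted loci by their carpel level in percent of the stamen level, in the M flower (purple) and in the m flower (green), which took part in choosing them. Right, cumulative percent of loci with at least 10 FPKM in the stamen whose carpel level lies at or below the percent of the stamen level on the horizontal axis (both axes log), for the M, m and F flowers; the M curve starts to climb near 5%, those of the m and F flowers below 1%.

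The carpel side was read in the same manner. In the F and m flowers 14 loci had at least 5 FPKM in both carpels and at most 10% of the lower carpel level in both stamens. In the M-carpel these carpel-restricted loci had a median of 42.3% of their m-carpel level (quartiles 30.0% and 50.3%), at 41.4%, 45.3% and 38.9% in M-carpel 1, 2 and 3. Of the 14 loci, 12 were called higher in the M-carpel than in the M-stamen. LcSTK, 1 of them, was at 14.0% of its m-carpel level and bHLH75 at 40.1%. The loci were chosen for their level in the F-carpel and the m-carpel, which favours a lower level in the M-carpel.

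The organ difference itself was compared between the M and the m flower by an interaction contrast. Of 24666 loci, 4370 (17.7%) differed, 1667 with a more positive stamen minus carpel difference in the M flower and 2703 with a more negative one. Among the ABCDE genes, LcPI had a log2 difference of 3.11 in the M flower and the interaction was -3.67 (FDR 2.96e-11), since it was at 374 FPKM in the m-stamen but 4.01 in the m-carpel. LcSEP4 and LcAP3-1 differed between flower types by less than the minimum fold change (0.80 and -0.39). SWEET1 (-0.06, FDR 0.516) and WRKY71 (0.04, FDR 0.792) had organ differences that were not distinguished between the flower types.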

How the data were processed

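Total RNA of detached organs was DNase-treated and sequenced as Illumina paired-end reads from NEBNext Ultra libraries. The authors trimmed reads with Trimmomatic, removed reads matching ribosomal RNA, and deposited a table of raw read counts for each gene model in each library and FPKM values that they calculated with Cufflinks from uniquely mapped reads. The submitters' processing notes name HISAT2 2.0.4 and StringTie; genome build, counting program and strand setting were not given in the sources used here, so overlapping and near-identical genes may share reads. The deposited table also holds fold changes and FDR values of the authors' own DESeq2 comparisons, which were not used. Genome positions were not used here. Columns were assigned by name, and 0 per-sample columns were left out.

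The 37401 gene models (2187 of them new genes) were summed to 34024 loci, as counts and as FPKM, of which 23439 carried a Swiss-Prot annotation and 0 rows named no gene. Loci were filtered with filterByExpr by organ, library sizes were scaled by TMM, and edgeR 4.0.16 (R 4.3.3) was fitted with 1 mean for each of the 6 organs over 18 libraries. Benjamini-Hochberg adjustment covered all loci tested, and a call needed an FDR under 0.01 with a log2 fold change of 1 or more in either direction. The standard error is the fold change on the log2 scale divided by the root of F. Levels in percent were computed from TMM-scaled CPM. With 3 counts as the floor, a locus with 0 counts could reach 0.117 CPM in the smallest library, which covers counting error only. On simulated counts for M-stamen against M-carpel with 200 changed loci, edgeR recovered 91% with 4 false calls among 21745 loci. That fit held the M libraries only and far fewer changed loci than were called here, so its rates need not hold for the fit over 18 libraries.

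Named in the text, where a role could be given, were the 11 ABCDE genes, LcActin and the other called MADS-box loci, the 8 largest called changes in each direction among annotated loci of at least 10 FPKM in the higher organ, the 5 most abundant loci of each organ, up to 3 members of each functional list per direction, and marker genes of at least 1 FPKM; loci named for being at 0, a conflict of direction or a member of a restricted set were chosen after their values were seen. Lists were built from Swiss-Prot names. The members and lists were chosen with earlier results of these data known. Alternatives comprised DESeq2 1.42.0, RLE in place of TMM, no filter, a filter at 5 CPM on average, limma 3.58.1 on log2(FPKM + 1) and on log2(FPKM + 0.1), where the added value understates changes of low genes, a replicate block, models not summed, only the organs compared, an FDR below 0.05, no minimum fold change, other limits for the restricted sets, and each library left out. The omission of the 5 loci with at least 1% of a library was added after the data were seen.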

Additional observations from a re-analysis of the deposited data

Results flagged for a closer look

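By the edgeR interaction contrast, the stamen minus carpel difference was not the same in the M and m flowers at 4370 of 24666 loci (17.7%). It differed at 6 of the 11 ABCDE genes. For LcMADS50 (LcPI) the log2 interaction was -3.67 (SE 0.18, FDR 2.96e-11): the gene stood at 374 ± 13.2 FPKM in the m-stamen and 4.01 ± 0.498 in the m-carpel, against 643 ± 28.7 and 76.7 ± 1.99 in the M flower (SD, n = 3). For LcMADS51 (LcSTK) it was 4.45 (SE 0.37, FDR 2.91e-08), with 7.85 ± 0.321 FPKM in the m-carpel and 1.12 ± 0.328 in the M-carpel.

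LcMADS11 (LcSHP) had an interaction of 1.84 (SE 0.12, FDR 1.95e-09), being higher in the stamen of the M flower (16.5 against 7.83 FPKM) and higher in the carpel of the m flower (9.28 against 18.2). LcMADS91 (LcSEP3) had 1.22 (SE 0.06, FDR 1.02e-11), with 352 ± 5.29 FPKM in the m-carpel and 133 ± 7.11 in the M-carpel. The low genes LcMADS94 (LcSEP2) and LcMADS45 (LcAP3-2) had 3.07 (SE 0.67, FDR 0.00117) and 1.27 (SE 0.23, FDR 0.000234); the LcMADS94 value was 0.88 and no longer called with limma on log2(FPKM + 1). The M-carpel also held the stamen-restricted loci at a median of 5.75% of the stamen level. Their low m-carpel level was set by the choice of the loci, and the part of either in the interaction was not tested.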

How the results depend on the processing

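The count of 6575 called loci fell to 4244 with a mean of at least 5 CPM (2428 higher in stamen), a filter that tests fewer loci, and the stamen count to 2560 with limma on log2(FPKM + 1). Without a minimum fold change 12433 loci were called (6556 and 5877 toward stamen and carpel), and 7756 in the interaction (3514 positive, 4242 negative). All other settings kept these counts within 1.5 times, DESeq2 giving 7028. No shared deviation by replicate number was seen: deviations of same-numbered stamen and carpel libraries correlated between -0.0369 and -0.0116. The replicate block gave 6358 calls. These values cannot tell whether same-numbered organs were collected together. Leaving out 1 library gave 6200 to 6301 calls and 4101 to 4226 in the interaction.

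The 121 loci named kept their direction in the M contrast under every alternative that tested them, and 107 also their side of the threshold. Some were not tested with a mean of at least 5 CPM or without the loci of at least 1% of a library. With limma on log2(FPKM + 1), 4 lost their call: LcSHP, LcSTK, TKPR1 of the tapetum list (-0.96) and SRS5 of the carpel list (-0.93). Only the interaction of LcMADS95, not called at 0.10, changed sign, to -0.08 without m-stamen 3 (range over the libraries left out -0.08 to 0.20). The median M-carpel level of the stamen-restricted loci was 6.08% without TMM, 4.82% and 6.12% with the limit on the other organ halved and doubled, and 5.57% to 5.87% without 1 library. For the fertile-stamen set of 18 loci these were 5.03% and 6.01% for the limits, 6.37% with the FPKM minimum doubled, and 5.48% to 5.89%. The carpel-restricted median was 47.2% with the limit doubled and 40% to 44.8% without 1 library. The new gene newGene_2823 (-0.96) was called without M-carpel 2 (-1.01) and without a minimum fold change. A locus with 0 counts could still reach 0.117 CPM in the smallest library, so a level of 0 does not show absence.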

Other observations

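Groups outside the reproductive lists are given beside the shares over all loci, 15.7% toward the stamen and 11% toward the carpel. Of 23 tested green tissue genes, 7 (30.4%) were higher in the stamen and 1 (4.35%) in the carpel, among them the chlorophyll-binding protein gene CAB40 at 32.2 ± 4.08 FPKM in the stamen and 3.99 ± 0.181 in the carpel and the Rubisco small subunit gene RBCS at 186 ± 18.7 and 49.4 ± 1.4 (SD, n = 3). Of 213 genes of the cell cycle and of chromatin, 49 (23.0%) were higher in the stamen and 15 (7.04%) in the carpel, but a histone H1 gene (LITCHI006496) was at 17.3, 18.5 and 20.1 FPKM in the stamen and 226, 210 and 203 in the carpel. Of 185 cytosolic ribosomal proteins, 13 (7.03%) were higher in the carpel and 2 (1.08%) in the stamen, both below the shares over all loci, and their median log2 fold change was -0.68, beside 0.01 over all loci.

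Hormone genes were called in both directions. Of 45 gibberellin genes 18 (40%) were higher in the stamen and 5 (11.1%) in the carpel, with the DELLA repressor GAI at 80.3 ± 4.52 and 39.6 ± 1.61 FPKM and the gibberellin receptor GID1B at 69.5 ± 2.7 and 178 ± 8.06 (SD, n = 3). Of 55 cytokinin genes 11 (20%) were higher in the stamen and 9 (16.4%) in the carpel, shares near those over all loci, led by the cytokinin-degrading CKX3 at 44.2 ± 0.624 in the stamen and 2.49 ± 0.271 in the carpel. Of 52 jasmonate genes 11 (21.2%) and 9 (17.3%) were called, with AOS1, the first committed step of jasmonate synthesis, at 57.9, 60.2 and 59.1 FPKM in the stamen and 309, 273 and 284 in the carpel. The ethylene-forming enzyme gene ACO was higher in the stamen, at 80.1 ± 5.64 against 15.9 ± 0.86 FPKM.

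Some of the most abundant annotated transcripts were common to both organs and others were not. A type 2 metallothionein gene (LITCHI024888) was the highest annotated locus of both, at 11200 ± 191 FPKM in the stamen and 6490 ± 163 in the carpel, and polyubiquitin UBQ10 had 2110 ± 185 and 1750 ± 29.5 (SD, n = 3). LITCHI011490, described as a ripening-induced protein, was at 2290 ± 142 in the stamen and 527 ± 30.3 in the carpel (log2 fold change 2.17).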
